A study of Mus musculus with 13 samples.

Results

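The genes described are the adult globins and a set of erythroid genes, measured as RNA in whole liver: Hba-a1, Hba-a2, Hbb-bs and Hbb-bt, which encode the alpha and beta chains of hemoglobin, and Alas2, Slc4a1, Ahsp, Epb42 and Car2, which serve heme synthesis, the red cell membrane, alpha chain stability and carbon dioxide transport. They were chosen by name, and 8 of the 9 are analysed here, from a table of 53465 genes. Ahsp is not analysed here. Livers came from male BALB/c mice, 6 wild type (WT) and 7 Nod2-/-, which lack the intracellular sensor of bacterial peptidoglycan fragments Nod2. All mice of both groups had received the carcinogen DMBA, were kept on high fat diet and are labelled as 30 weeks old with cancer. Both genotypes were bred as separate lines and not as littermates, so effects of line and cage cannot be told apart from genotype, and each library is 1 liver in which tumors can occur. Mice are named W1 to W6 (WT) and N1 to N7 (Nod2-/-).

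Mature mouse red cells have no nucleus but carry globin RNA left over from their precursors, most of it in reticulocytes, so any blood held in an organ brings globin RNA with it. Precursors in bone marrow or spleen also make membrane proteins such as band 3 (Slc4a1), and the first enzyme of erythroid heme synthesis, Alas2. The adult liver makes little blood, although red cell production can return to it under stress.

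Libraries of WT livers held 14886273 to 20579984 counts, and libraries of Nod2-/- livers held 13824780 to 19391431. Values are given as normalized counts, each divided by its library's TMM-adjusted size and multiplied by the average of those sizes, and log2 fold changes are Nod2-/- against WT. Hepatocyte markers were abundant in every library: Alb had 860971 to 2105750.0 normalized counts. Nod2 itself was at 0 to 4 counts in WT livers, and Nod2-/- livers had 1 to 6, too few to check the genotype labels, and the count covers the whole gene rather than a deleted part. In bulk liver, fewer cells of a type and less RNA per cell cannot be told apart.

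The alpha globin genes were high in the same 4 Nod2-/- livers. Hba-a1 (chr11:32283511-32284465, GRCm38) had 172, 221 and 335 normalized counts as lowest, median and highest in WT mice, and 204, 543 and 1689.9 in Nod2-/- mice. N4, N5, N6 and N7 lay above every WT mouse, at 1457, 543, 1122 and 1689.9 in that order, and N1, N2 and N3 lay within the WT range, so the groups overlapped. Hba-a2 (chr11:32296489-32297298) had 76.8, 155 and 246 normalized counts as lowest, median and highest in WT mice, and 122, 378 and 1205 in Nod2-/- mice. The same 4 mice were above every WT mouse. The mean was 3.21 times higher in Nod2-/- mice for Hba-a1 (245 ± 71.4 in WT, SD, n = 6, 786 ± 628 in Nod2-/-, n = 7), with a log2 fold change of 1.68 (SE 0.48, edgeR adjusted p = 0.0886). For Hba-a2 it was 1.75 (SE 0.52, edgeR adjusted p = 0.0982). Sizes depended on the fit: voomWithQualityWeights gave 0.99 for Hba-a1 and 1.01 for Hba-a2.

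The beta globin genes had the same pattern. Hbb-bs (chr7:103826534-103828096), the most abundant of the 4, had 1214, 2198 and 3471 normalized counts in WT mice in the same order, and 1917, 4704 and 13406 in Nod2-/- mice. Hbb-bt (chr7:103812524-103813996) had 88.6, 193 and 271 in WT mice, and 173, 398 and 1208 in Nod2-/- mice. N4 to N7 were again above every WT mouse in both genes and N1 to N3 were not. The log2 fold change was 1.40 for Hbb-bs (SE 0.44, edgeR adjusted p = 0.114) and 1.53 for Hbb-bt (SE 0.44, edgeR adjusted p = 0.0915), and 0.84 and 0.97 under voomWithQualityWeights. Having at least 4 of 7 Nod2-/- mice above every WT mouse held for the 4 globins and Slc4a1, which is 5 of the 8 genes, and for 10.7% of all genes tested.

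**Figure D1:**
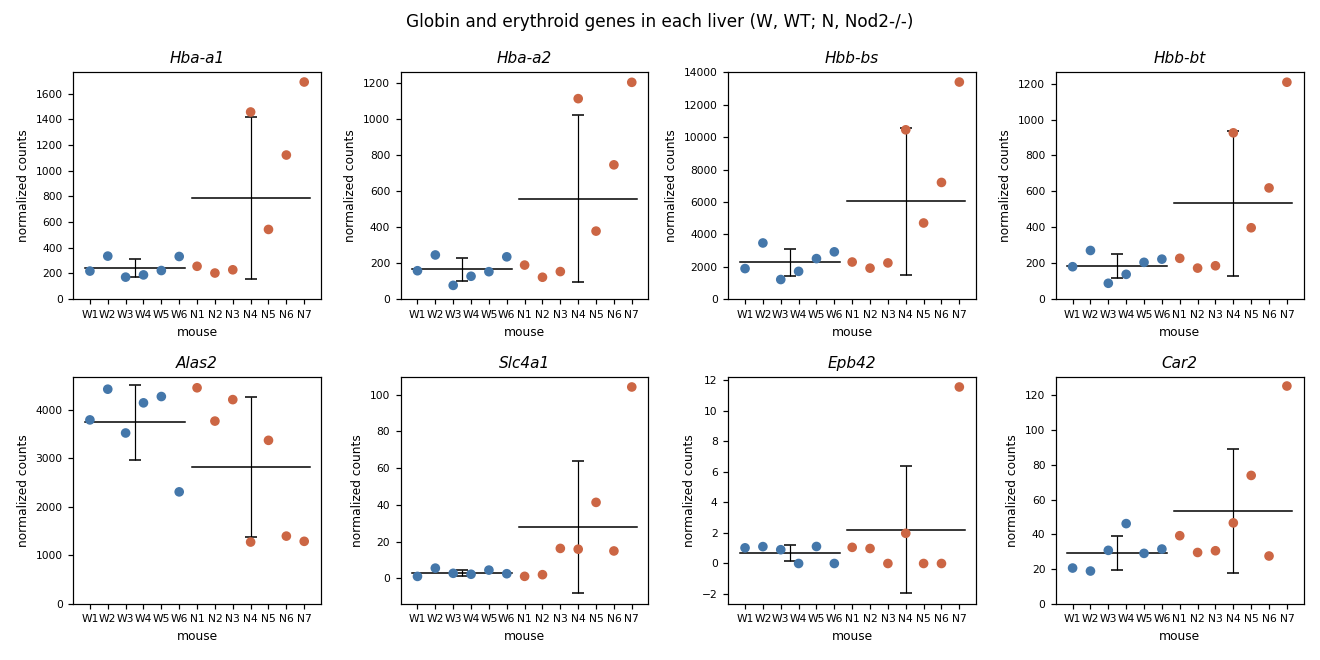
Normalized counts (vertical axes, linear scale) of the 8 genes in each mouse, blue for WT and orange for Nod2-/-, with the group mean as a line and the SD as a bar. The 4 globins are high in N4 to N7, Alas2 is low in N4, N6 and N7, and Slc4a1 is highest in N7 at 104.

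Together the 4 globins took 99.4 to 233 CPM (counts scaled to library size) in WT mice, with a median of 161. In Nod2-/- mice they took 158 to 1068, with a median of 353. N7 had 1068 CPM (95% Wilson interval 1052 to 1084) and N5, the lowest of the 4 high mice, 353 (345 to 362), above the WT maximum in W2 (226 to 241). These intervals cover counting error only. The make-up of the globin RNA varied less than its amount. Beta counts were 4.19 to 7.21 times alpha counts over the 13 mice, with the lowest ratios in N6 and N4 (4.43). Hbb-bt made up 6.80% to 9.02% of beta counts, and Hba-a2 made up 30.9% to 43.3% of alpha counts, with W3 the lowest.

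The division between the paired genes is uncertain. Of the stretches of 43 bases, the read length, in Hba-a2 transcripts, 90.5% also occur in another gene, and 73.4% of those in Hba-a1 do. The share was 58.7% for Hbb-bt and 53.7% for Hbb-bs, and how reads matching several genes were counted is not given in the sources used here. BALB/c mice also carry another beta globin haplotype than the reference genome, so the names Hbb-bs and Hbb-bt stand for the reference genes to which reads were assigned. For Slc4a1 and Car2 no such stretch was shared.

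Alas2 (chrX:150547375-150570638), which makes 5-aminolevulinate for heme in red cell precursors, did not follow the globins. It had 2309, 3970.2 and 4428 normalized counts as lowest, median and highest of the WT mice, while the Nod2-/- mice had 1272, 3372 and 4457. N4, N6 and N7 were low, at 1272, 1395 and 1288, below every WT mouse, whereas N5 was at 3372 and N1 to N3 were within or just above the WT range. The log2 fold change was -0.41 (SE 0.31, edgeR adjusted p = 0.490). At least 3 of 7 Nod2-/- mice were below every WT mouse for 17.9% of all genes tested, and for Alas2 alone of the 8 genes. In N4, N6 and N7, Alas2 had 0.0912, 0.144 and 0.0736 counts for each globin count, against 0.622 to 2.27 in WT mice and 0.560 in N5.

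Alas2 was abundant in every liver. As CPM per kilobase of exon, its median was 99.5 in WT mice, beside 172 for Hbb-bs, 16.4 for Hba-a1, 0.0320 for Slc4a1 and 105 for Alas1, the form of the enzyme used by other tissues. Alas2 overlaps Apex2, a DNA repair gene on the other strand, and 12.1% of its 43-base stretches occur in another gene. Apex2 was at 186 to 276 normalized counts in WT livers, and Nod2-/- livers had 190 to 286. N4 and N7 lay within the WT range and N6 was the highest of all mice, so the low Alas2 values had no counterpart there.

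Slc4a1 (chr11:102348824-102366203), the anion exchanger of the red cell membrane, was nearly absent from WT livers. It had 1 to 5 counts in each WT mouse, and in Nod2-/- mice 1, 2, 16, 16, 47, 13 and 108 counts from N1 to N7. N3 to N7 were above every WT mouse, N1 and N2 were not, and N5 and N7 stood highest. The log2 fold change was 3.16 (SE 0.84, edgeR adjusted p = 0.0783), and 1.78 under voomWithQualityWeights (adjusted p = 0.268). Without N7 it was 2.30 (edgeR adjusted p = 0.146), and without N1 it was 3.35 (edgeR adjusted p = 0.0495). Leaving out each mouse in turn, the adjusted p ranged from 0.0495 to 0.167.

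Slc4a1 and globin RNA were high in different proportions. Slc4a1 made up 0.0420% to 0.175% of the counts of Slc4a1 and globin together in WT mice. N4 and N6, with much globin RNA, had 0.113% (95% exact interval 0.0648 to 0.184) and 0.153% (0.0816 to 0.262), inside the WT range. N3, N5 and N7 had 0.576%, 0.682% and 0.592%, with exact intervals above those of N4 and N6 but overlapping that of W3, which reached 0.509%. The intervals cover counting error only. N3 thus had a share like that of N5 and N7 although its globin counts were within the WT range.

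**Figure D2:**
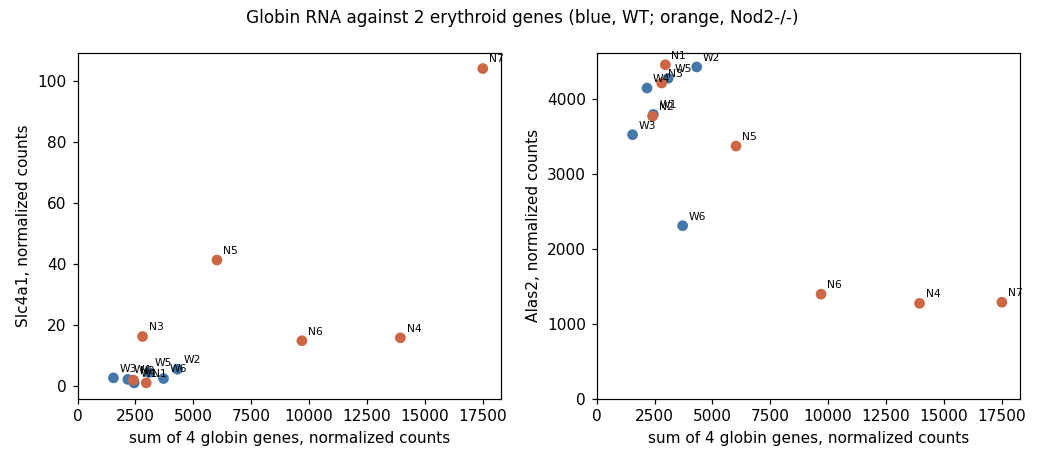
Slc4a1 (left) and Alas2 (right) against the sum of the 4 globins, in normalized counts on linear axes, 1 point per mouse, blue for WT and orange for Nod2-/-. N4 and N6 have high globin with less Slc4a1 than N5 and N7, N7 has the most of both, and Alas2 is low in N4, N6 and N7.

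Epb42 (chr2:121017891-121037072), protein 4.2 of the red cell membrane, had 0 or 1 count in each WT mouse, 12 in N7, 2 in N4 and 0 or 1 in the other Nod2-/- mice (log2 fold change 1.58, SE 1.04, edgeR adjusted p = 0.419). The direction rested on N7: without it the DESeq2 value was -0.02. Outside N7 no mouse had more than 2 Epb42 counts. Car2 (chr3:14886273-14900770), a cytosolic carbonic anhydrase found in red cells and in many other cells, had 18.8, 29.9 and 46.1 normalized counts as lowest, median and highest of the WT mice, while the Nod2-/- mice had 27.5, 39.2 and 125. N7 and N5 were highest at 125 and 73.9 and N4 was level with the highest WT mouse, so the groups overlapped. The log2 fold change of Car2 was 0.85 (SE 0.36, edgeR adjusted p = 0.209), and 0.49 without N7 (edgeR adjusted p = 0.427).

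None of the 8 genes passed 5% FDR in edgeR, which called 118 of 19567 genes tested (0.603%), 56 of them higher in Nod2-/- mice (0.286%). At an unadjusted p under 0.05, 6 of the 8 were counted, all higher (the 4 globins, Slc4a1 and Car2), beside 2130 higher and 1673 lower genes overall. DESeq2, another count model, gave 7 of the 8 an adjusted p (not Epb42) and called 5, all higher, beside 8.52% of 14219 genes: Slc4a1 (adjusted p = 0.00381), Hba-a1 (0.0265), Hbb-bt (0.0296), Hba-a2 (0.0323) and Hbb-bs (0.0499). DESeq2 was also run with each mouse left out in turn, chosen after seeing the data. No globin was past the threshold without W1, W4, W5, N4, N6 or N7, all 4 were without N1, N2 or N3, and 1 to 3 were without W2, W3, W6 or N5. Slc4a1 was past it in all 13 of these fits (adjusted p = 0.000432 to 0.0394, the highest without N7). The calls on the globins therefore differed between tools and, in DESeq2, were lost with 6 of the 13 mice. The edgeR count of 118 was 965 without W3, and 47, 38, 46 and 63 without W1, W2, W4 or W5, and 62, 59 and 55 without N4, N6 or N7.

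Globin genes rose and fell together over mice. Of 24 correlations of log2 CPM computed for 8 pairs of genes (13 mice, WT and Nod2-/-), Hba-a1 and Hbb-bs had a Pearson r of 0.98 over 13 mice (Spearman rho 0.98, permutation p = 1e-05 for each, the smallest the permutations can give, adjusted p = 0.00024), and 0.96 without the 2 mice farthest from the median. Within WT mice r was 0.93 (rho 1.0, exact p = 0.00139 and 0.00278, adjusted p = 0.00476 and 0.0222, r without 2 mice 0.92) and within Nod2-/- mice 0.99 (rho 1.0, exact p = 0.000198 and 0.000397, adjusted p = 0.00159 and 0.00476, r without 2 mice 0.99). Hba-a1 and Slc4a1 had an r of 0.78 over 13 mice (rho 0.69, permutation p = 0.00317 and 0.0114, adjusted p = 0.00845 and 0.0457, r without 2 mice 0.64), 0.41 within WT mice (rho 0.49, exact p = 0.425 and 0.356, adjusted p = 0.510 and 0.427, r without 2 mice 0.01) and 0.70 within Nod2-/- mice (rho 0.54, exact p = 0.0970 and 0.236, adjusted p = 0.166 and 0.363, r without 2 mice 0.57). So Hba-a1 and Slc4a1 did not pass the adjusted threshold within either genotype.

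N4, N6 and N7 were low in Alas2 and high in Hba-a1. Over 13 mice r was -0.91 (rho -0.51, permutation p = 0.00049 and 0.0771, adjusted p = 0.00235 and 0.168, r without 2 mice -0.79), and within Nod2-/- mice it was -0.96 (rho -0.82, exact p = 0.00536 and 0.0341, adjusted p = 0.0129 and 0.0819, r without 2 mice -0.91). Within WT mice r was -0.35 (rho 0.37, exact p = 0.601 and 0.497, adjusted p = 0.656 and 0.542, r without 2 mice 0.58). The rank correlations passed the adjusted threshold in none of the 3 sets.

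The other pairs of Alas2 gave smaller values of r over 13 mice. With Slc4a1 r was -0.61 (rho -0.46, permutation p = 0.0233 and 0.115, adjusted p = 0.0465 and 0.208, r without 2 mice -0.30), 0.33 within WT mice (rho 0.54, exact p = 0.511 and 0.297, adjusted p = 0.584 and 0.375, r without 2 mice 0.96) and -0.57 within Nod2-/- mice (rho -0.50, exact p = 0.192 and 0.267, adjusted p = 0.271 and 0.375, r without 2 mice -0.35). With the platelet gene Pf4 it was -0.64 (rho -0.73, permutation p = 0.0201 and 0.00652, adjusted p = 0.0439 and 0.0313, r without 2 mice -0.45), -0.36 within WT mice (rho -0.20, exact p = 0.393 and 0.714, adjusted p = 0.510 and 0.745, r without 2 mice -0.07) and -0.62 within Nod2-/- mice (rho -0.71, exact p = 0.144 and 0.0881, adjusted p = 0.217 and 0.176, r without 2 mice -0.44). Car2 and Alas2 had -0.47 (rho -0.46, permutation p = 0.0959 and 0.121, adjusted p = 0.166 and 0.208, r without 2 mice -0.28), -0.19 within WT mice (rho -0.54, exact p = 0.679 and 0.297, adjusted p = 0.682 and 0.375, r without 2 mice -0.43) and -0.36 within Nod2-/- mice (rho -0.36, exact p = 0.417 and 0.444, adjusted p = 0.510 and 0.508, r without 2 mice -0.22). The relations with Slc4a1 and Pf4 over 13 mice rest in part on the 2 mice left out.

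The list of red cell membrane and skeleton genes holds Slc4a1, Epb42 and 17 others. Of the 17, 12 had positive and 5 negative fold changes, none past 5% FDR in edgeR and 2 of 8 with an adjusted p in DESeq2, with a median log2 fold change of 0.68 beside 0.03 over all genes tested, of which 53.6% were positive. N5 and N7 had the top values for 10 of the 17, a tally made after seeing the values, and for 2.79% of 19560 genes. Ank1, Rhag and Kel were among the 10, at low counts. Epb41 and Xk, which are more abundant than these, had negative fold changes (-0.28 and -0.48, edgeR adjusted p = 0.158 and 0.132). The summed counts of the list, mostly Epb41, were below every WT mouse in 5 Nod2-/- mice and lowest in N5. Hemgn, an erythroid nuclear protein gene outside this list, was also highest in N7 and N5. It had 13.5 and 12.3 normalized counts there, 0 in N4 and 2.29 in N6.

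**Figure D3:**
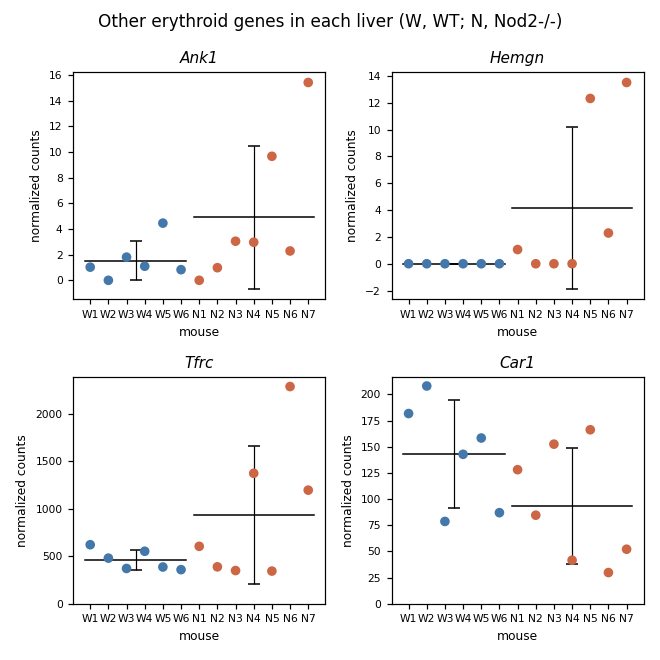
Normalized counts of 4 further erythroid genes in each mouse (linear axes, line for group mean, bar for SD, blue for WT, orange for Nod2-/-). Ank1 and Hemgn are highest in N5 and N7, Tfrc is highest in N6, and Car1 is low in N4, N6 and N7.

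Tfrc, the receptor that takes up transferrin iron, had 358 to 620 normalized counts in WT mice and 1371, 2284 and 1194 in N4, N6 and N7, but 343 in N5. Car1, a carbonic anhydrase, was low in those 3 mice at 41.6, 29.8 and 52.1, against 78.6 to 208 in WT mice. The list of erythropoietin receptor and iron uptake genes, which holds Tfrc, had 5 positive and 4 negative fold changes (median 0.08). The list of red cell cytosol genes, which holds Car1, had 10 positive and 5 negative (median 0.31). None passed 5% FDR in edgeR. DESeq2 called 1 of 8 and 1 of 12, both higher, beside 8.52% of all genes. Of 14 heme synthesis genes, Alas2 included, 2 had positive and 12 negative fold changes, none past 5% FDR in edgeR and 2 in DESeq2 (Cpox and Fech, lower), with a median of -0.23. Of 10 erythroid transcription factors, 9 were tested and all 9 had positive fold changes, none past 5% FDR in edgeR and 2 of 7 with an adjusted p in DESeq2 (Nfe2 and E2f2). Gata1 (0 or 1 count in each WT mouse) and Bcl11a (0 to 2) would not have passed the filter on WT counts alone. The signs of these genes therefore say little. Gata1 was 14.1 normalized counts in N5 and at most 2.89 in the other 12 mice. The embryonic globins Hba-x, Hbb-y, Hbb-bh1 and Hbb-bh2 had 0 counts in all 13 mice. Epo, the hormone that drives red cell production, had 1 count in N4 and 0 in the other 12.

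Markers of other blood cells were high in some of the same mice, and their part in these results was not tested. Of 13 platelet markers, all 13 had positive fold changes, and their summed normalized counts were 162 to 277 in WT mice, 704 in N7, 611 in N5, 396 in N4, 397 in N6 and 282 in N3 (most abundant, Clec1b). DESeq2 gave an adjusted p to 5 of these and called 2, and to 6 of the 13 neutrophil markers and called 4, all higher. Of all genes with an adjusted p it called 8.52%, in either direction. The 13 neutrophil markers summed to 232 to 2235 in WT mice, 69447 in N7, 16018 in N4, 4065 in N5 and 2907 in N3. Lcn2, which other cells also make, was 81.1% of the sum over mice, and without it, a sum made after seeing the values, WT mice had 74.2 to 166, N7 16471, N5 680, N6 414, N4 363, N3 332 and N2 183, so 6 Nod2-/- mice were above every WT mouse. The 8 bone marrow granulocyte precursor markers summed to 6.16 to 45.0 in WT mice, 2028 in N7 and 1324 in N4 (most abundant, Prtn3, which DESeq2 called higher, as it did Cebpe, of 2 given an adjusted p), and Elane, neutrophil elastase, was 183 in N7 and at most 19.4 in the other 12 mice. That list also holds Cebpe, a transcription factor of granulocyte precursors, which was at 0 to 1.12 in WT livers and at 91.1 to 255 in those lacking Nod2, with a log2 fold change of 8.07. All 7 Nod2-/- sums of the list were above every WT sum. Without Cebpe 5 were, and N1 and N2 lay within the WT range at 21.2 and 21.6. Prtn3 made up most of what was left in N3, N4 and N6, at 91.5 of 110, 1214 of 1233 and 92.7 of 126. In N4, Mpo and Elane of the same list were both at 4.95, against up to 3.62 and 4.97 in WT mice and 430 and 183 in N7. Cebpe and the bile duct gene Sox9 were the only genes of the 20 lists past 5% FDR in edgeR (adjusted p = 1.79e-08 and 0.0345).

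Over all genes tested 53.6% of fold changes were positive. T and NK cell markers had 7 of 7 positive fold changes, Kupffer cell markers 5 of 6, B cell markers 4 of 6, endothelial markers 5 of 6, cell division markers 8 of 8 and hepatocyte markers 5 of 8, none past 5% FDR in edgeR. DESeq2 called 1 of 6 endothelial and 3 of 6 cell division markers higher and 2 of 8 hepatocyte markers lower, among those it gave an adjusted p. Over all genes it called 8.52% of 14219, in either direction. The part of these markers was not tested either.

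Slc4a1 and the neutrophil gene S100a8 had an r of 0.89 over 13 mice (rho 0.75, permutation p = 1e-04 and 0.00494, adjusted p = 0.00120 and 0.0296, r without 2 mice 0.77) and 0.88 within Nod2-/- mice (rho 0.86, exact p = 0.00119 and 0.0238, adjusted p = 0.00476 and 0.0635, r without 2 mice 0.89). Slc4a1 and Elane had an r of 0.85 over 13 mice (rho 0.65, permutation p = 0.00031 and 0.0180, adjusted p = 0.00186 and 0.0619, r without 2 mice 0.54) and 0.90 within Nod2-/- mice (rho 0.86, exact p = 0.00198 and 0.0238, adjusted p = 0.00595 and 0.0635, r without 2 mice 0.94). Within WT mice r was -0.22 for S100a8 (rho -0.14, exact p = 0.682 and 0.803, adjusted p = 0.682 and 0.803, r without 2 mice -0.94) and -0.67 for Elane (rho -0.60, exact p = 0.144 and 0.242, adjusted p = 0.217 and 0.363, r without 2 mice -0.87).

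Genes most like the members were ranked by r of log2 CPM over 13 mice among 13575 genes. Those most like the mean of the 4 globins included Ccdc12, Rpl22l1, Nt5c, Bin3, Rpl3, Gm10263, Ap1s1, Gnb2 and Sergef, with r from 0.97 to 0.92. Those most like the mean of Alas2, Slc4a1 and Epb42 included Myom3, F13a1, Casp1, Vsig4, Unc13d, Sptb, Glipr2, Zfp503 and Slc2a3, with r from 0.93 to 0.87. Without N7 these fell to 0.85 to 0.62. A ranking for Alas2 alone, chosen after its values were seen, was led by Cyp4v3, Gna14, Gm47789, Mup2 and Mup11 with r of 0.96 to 0.98.

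Promoter sequence is shown for 1 alpha globin, 1 beta globin and Alas2, because the globins moved together and Alas2 did not. Windows of 150 bases before the RefSeq start (GRCm38.p6) were searched on both strands for AGATAA (held by 5.65% of 32851 promoter windows of that length), CCNCNCCC (38.1%), CCAAT (24.5%) and TATAA (14.2%). The windows of Hba-a1 and Hba-a2 were identical at 147 of 147 bases after a shift of 3. Hba-a2 and Hba-a1 held 1 CCAAT and 1 TATAA each, Hbb-bs held 1 CCNCNCCC, 1 CCAAT and 1 TATAA, Hbb-bt held 1 CCNCNCCC, 3 CCAAT and 1 TATAA, and Alas2 held 1 AGATAA and 4 CCNCNCCC, 3 of them overlapping. The parts before the GENCODE start are printed 5′ to 3′ on the gene's strand with matches in capitals: Hba-a2 is chr11:32296342-32296488 (plus strand), Hbb-bt chr7:103813997-103814073 (minus) and Alas2 chrX:150547267-150547374 (plus). Some matches lie outside the printed parts. A match describes the letters only.
Hba-a2: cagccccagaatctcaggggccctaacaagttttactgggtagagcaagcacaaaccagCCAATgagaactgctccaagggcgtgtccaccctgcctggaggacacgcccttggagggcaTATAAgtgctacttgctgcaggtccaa
Hbb-bt: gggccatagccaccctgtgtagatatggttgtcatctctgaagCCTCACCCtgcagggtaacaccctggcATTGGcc
Alas2: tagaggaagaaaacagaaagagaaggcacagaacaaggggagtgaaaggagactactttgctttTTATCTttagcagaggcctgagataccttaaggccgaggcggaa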

How the data were processed

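Reads were trimmed by the authors (Trimmomatic 0.33) and aligned to GRCm38 (TopHat2 2.1.1), and raw counts per gene were deposited, 1 library per mouse. The counting program and its use of strand are not given in the sources used here. Symbols and positions came from GENCODE M21. A row without a gene identifier was left out. Genes with at least 10 counts over 13 libraries entered edgeR 4.0.16 under R 4.3.3 (TMM, glmQLFit and glmQLFTest, two-sided, no covariate, Benjamini-Hochberg). List genes near 0 counts in WT mice, such as Gata1, Kel, Rhag and Gp1bb, passed this filter through Nod2-/- mice. That favoured positive signs in the tallies of lists. Alternatives were DESeq2 1.42.0 (the authors' tool), limma 3.58.1 voomWithQualityWeights, RLE, other filters, a replicate block, a robust fit, libraries sized without globins, leaving out each mouse and, chosen after seeing the data, DESeq2 without each mouse. The functions were tested on simulated data.

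The members and the 20 gene lists were chosen with earlier results of these data known. Named genes are the members, list genes past 5% FDR, up to 5 per list of highest mean, and genes among the 10 most like the globin mean and the precursor mean (Ahsp left out, as in its planned correlation). Others named were chosen after their values were seen. Correlations used log2 CPM (prior count 2), with exact permutations within a genotype and 100000 resamples over 13 mice, and Benjamini-Hochberg over all 24. They were planned over 13 mice and within each genotype. All were computed, adjusted together and printed. All 36 pairs of libraries within a genotype differed by more than sampling noise, with a chi-square of 11.7 to 177 for each degree of freedom.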

Additional observations from a re-analysis of the deposited data

Results flagged for a closer look

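Of 16 groups examined (8 genes in each genotype), 2 had a mouse far from the others, where chance gives such a value in about 1 in 20 groups. Slc4a1 in N7 was 104.2 normalized counts, and the next Nod2-/- mouse had 41.3. Epb42 in N7 was 11.6, and the next had 1.98. Both values belong to the same mouse, which also had the highest globin, platelet and neutrophil marker sums. Their part was not tested.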

How the results depend on the processing

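The fold changes of 7 of the 8 genes kept their direction under every alternative that gave a value, but sizes differed: Hba-a1 was 1.68 in the main fit and 0.99 under both voomWithQualityWeights and the replicate block, Hba-a2 was 1.75, 1.01 and 1.08, Hbb-bs was 1.40, 0.84 and 0.85, Hbb-bt was 1.53, 0.97 and 0.99, and Slc4a1 was 3.16, 1.78 and 2.03. Epb42 was -0.13 under the replicate block, where N7 drops out because no WT mouse has its number, and -0.02 in DESeq2 without N7, and it was past the threshold in no fit that gave it an adjusted p, which DESeq2, the stricter filters and edgeR without N7 did not. DESeq2 moved the genes past 5% FDR from 118 to 1212 and the members from 0 to 5, voomWithQualityWeights gave 553 genes, and DESeq2 with N7 left out, chosen after seeing the data, gave 611 genes and 1 member. DESeq2 with each mouse left out, also chosen after seeing the data, gave 509 to 2137 genes and 1 to 5 members. The cause was not tested. The replicate block gave 38 genes and 0 members. Replicate numbers did not pair the mice: deviations of same-numbered mice correlated at -0.21 to 0.23, and 0 of 6 WT mice correlated best with their own number. Leaving out each mouse in edgeR gave 38 to 965 genes and 0 to 1 members, the 1 being Slc4a1 without N1. Over the alternatives other than leaving mice out of DESeq2, the adjusted p of Hba-a1 ranged from 0.0265 to 0.283 and that of Slc4a1 from 0.00381 to 0.268. No rank correlation changed the sign of a called r, but Slc4a1 with Elane lost its call over 13 mice and within Nod2-/- mice (rho 0.65 and 0.86), as did Slc4a1 with S100a8 within Nod2-/- mice (rho 0.86), Alas2 with Hba-a1 over 13 mice and within Nod2-/- mice (rho -0.51 and -0.82) and Alas2 with Slc4a1 over 13 mice (rho -0.46, and r -0.61 with a prior count of 0.5). Ratios within a mouse are the same from raw and normalized counts. Counts of 1 to 5 for Slc4a1 and of 0 or 1 for Epb42 limit both in WT mice.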

Other observations

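Of 11 genes of hemoglobin and red cell clearance, 8 had positive and 3 negative fold changes. The plasma proteins that bind free hemoglobin and heme, chosen after seeing the values, were above every WT mouse in the 4 mice high in globin, while Cd163 was below every WT mouse in 4 Nod2-/- mice and Ftl1 in 6. Hp, haptoglobin, had 47959 to 108154 normalized counts in WT mice and 196295, 158132.5, 132012 and 293633 in N4 to N7. Hpx, hemopexin, had 67643 to 131513 in WT mice and 238007.5, 147547, 209319.9 and 373169 in N4 to N7. Hpx was also above every WT mouse in N3, at 142573, where globin was within the WT range. Neither passed 5% FDR in edgeR (adjusted p = 0.158 and 0.0920), DESeq2 called both (adjusted p = 0.0498 and 0.00949), and both are also acute phase genes. The 8 lung epithelium markers had negative fold changes, 0 past 5% FDR in edgeR and 6 of 7 with an adjusted p in DESeq2, beside 8.52% of all genes. They summed to 236 to 3241 normalized counts in WT mice, highest in W4 and W2, and to 42.3 to 525 in Nod2-/- mice, where N4 and N5 lay within the WT range, with Sftpc the most abundant. Their part in the globin values was not tested.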
